A study of Rattus norvegicus and Mus musculus with 34 samples.

Results

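The effect of cutting a sensory nerve on healing jaw tissue at day 3 was taken from 7 of the 23 rats of the study, which holds 34 samples in all. The members were chosen from the sample labels as every rat of day 3, with 4 rats in the sensory nerve− group and 3 rats in the sensory nerve+ group, and all 20022 listed genes were used. Every rat was a wild-type (WT) male Sprague-Dawley of 6 to 8 weeks that carried a periodontal bone defect in the molar region of the mandible and received penicillin for 3 days. In the sensory nerve− group about 5 mm of the inferior alveolar nerve was removed before its entry into the mandibular canal, and in the sensory nerve+ group it was left in place, whereas a sham exposure of the nerve is not given in the sources used here. The tissue is a mixture of the cells inside the defect, and a sample of 1 rat is 1 library.

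The inferior alveolar nerve carries sensation from the lower teeth and jaw. The cell bodies of its axons lie in the trigeminal ganglion, outside the sampled tissue, so that healing tissue holds axon endings, Schwann cells that wrap them, and little of the neurons' own RNA. Behind a cut, axons degenerate and Schwann cells switch off myelin genes and switch on a repair program, while peptides such as CGRP (gene Calca) and substance P (gene Tac1) that sensory endings release act on receptors of immune, vascular and bone cells. Day 3 of bone healing belongs to the inflammatory phase, in which neutrophils and macrophages clear the clot before new bone forms.

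The 7 libraries held between 17830593 and 18742274 counts (median 18100332), and they differed in tissue content within both groups. Hemoglobin genes took 5.40% to 19.5% of the counts in sensory nerve+ rats and 2.05% to 12.5% in sensory nerve− rats. Amelx, the gene of the enamel protein amelogenin, stood at 2.30, 2731 and 12051 CPM (counts relative to a library size adjusted by TMM, the trimmed mean of M values) in the 3 sensory nerve+ rats and at 0.647, 125, 6280 and 1.72 CPM in sensory nerve− rats 1 to 4. The first principal component held 52.9% of the variance and had Amelx, Enam and Ambn at its high end, with sensory nerve+ rat 2 at 75.9 and sensory nerve− rat 3 at 77.6, and with sensory nerve+ rat 1 at −79.4 and sensory nerve− rat 4 at −52.7. Pearson correlations of log2 CPM across genes were 0.859 to 0.970 (median 0.937) over the 12 pairs of rats from different groups, 0.879 to 0.954 (median 0.927) over the 6 pairs within the sensory nerve− group and 0.860 to 0.936 (median 0.919) over the 3 pairs within the sensory nerve+ group. By this measure rats of different groups were no less alike than rats of the same group.

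**Figure D1:**
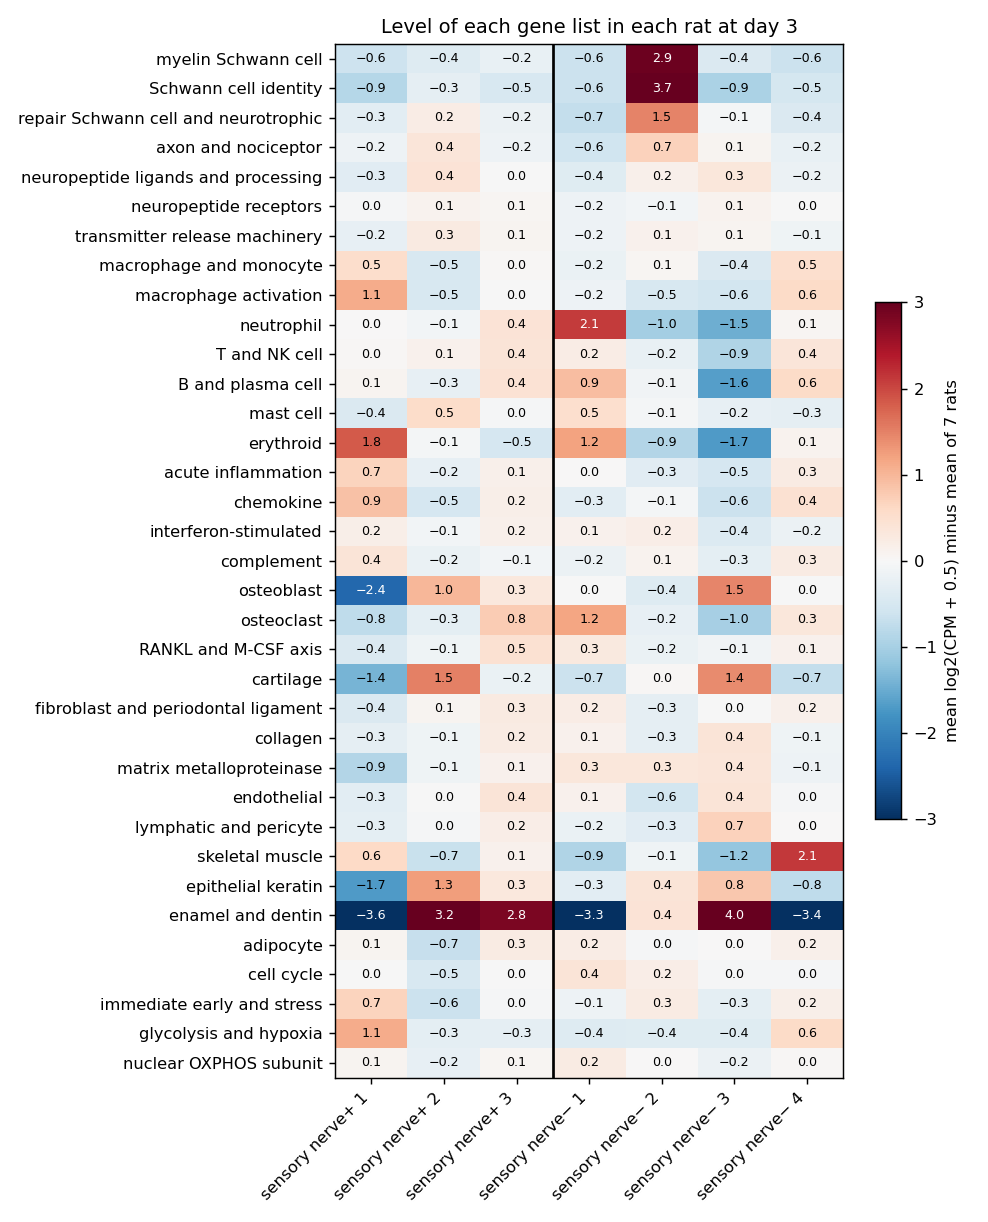
Level of 35 gene lists (rows) in the 7 rats of day 3 (columns, sensory nerve+ left and sensory nerve− right of the black line). Each cell is the mean log2(CPM + 0.5) of the list in that rat minus the mean over the 7 rats. The myelin and Schwann cell lists are high in sensory nerve− rat 2, the neutrophil list in sensory nerve− rat 1, the skeletal muscle list in sensory nerve− rat 4, and the enamel and dentin list in rats of both groups.

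No gene was called between the groups at day 3. Of 14695 genes that passed the filter on low counts, 0 (0%) had an adjusted p under 0.05 in edgeR's quasi-likelihood test with Benjamini-Hochberg adjustment, and the lowest adjusted p was 0.999975. An unadjusted p under 0.05 was reached by 122 genes (0.83%), 38 of them higher (0.259%) and 84 lower (0.572%) in the sensory nerve− group. That share lies below the share of 0.05 that evenly spread p values would give. DESeq2 likewise gave 0 calls and 211 genes below an unadjusted p of 0.05, and limma-voom gave 0 calls and 110 such genes. The median log2 fold change of sensory nerve− over sensory nerve+, the measure used throughout, was −0.0074 over all genes tested, with 48.1% of genes above 0, and the median standard error (SE) was 0.234. All fold changes below therefore describe these 7 rats, and none passed the test. In bulk tissue, fewer cells of a type and less RNA per cell cannot be told apart.

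The values of the 4 sensory nerve− rats did not overlap with those of the 3 sensory nerve+ rats in 253 genes (1.72%), 126 of them higher (0.857%) and 127 lower (0.864%) in the sensory nerve− group. Of these, the 5 with the smallest p on the lower side were Tesc, Slc39a8, Nell2, Cnn1 and Acvr1b. Tesc, which encodes the calcium-binding protein tescalcin, stood at 2.91, 10.6 and 6.83 CPM in sensory nerve+ rats and at 1.82, 1.15, 2.39 and 2.05 CPM in sensory nerve− rats. Its log2 fold change was −1.87 (SE 0.475). Slc39a8, a zinc and manganese importer, had 92.0, 97.9 and 138 CPM in sensory nerve+ rats against 45.8, 53.2, 59.6 and 79.7 CPM in sensory nerve− rats, a log2 fold change of −0.88 (SE 0.227). These were the genes whose groups lay farthest apart for their spread, and for both the gap between the nearest rats of the groups was small beside the range within a group. Nell2, a secreted protein of the nervous system, had a log2 fold change of −1.83 (SE 0.485) at 1.45 to 2.61 CPM in sensory nerve+ and 0.235 to 0.898 CPM in sensory nerve− rats. Cnn1, the smooth muscle protein calponin, had −1.12 (SE 0.296), with 5.92 to 9.21 CPM against 2.39 to 4.53 CPM. Acvr1b, an activin receptor, had −0.48 (SE 0.127), with 45.4 to 53.6 CPM against 29.5 to 39.6 CPM.

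On the higher side, 3 of the 5 genes with the smallest p and no overlap are known from cell division. Oip5, which helps to place the centromere histone, had 8.94, 8.65 and 10.4 CPM in sensory nerve+ rats and 17.8, 17.3, 13.2 and 11.8 CPM in sensory nerve− rats, a log2 fold change of 0.69 (SE 0.20). Knl1, a scaffold of the kinetochore, stood at 29.0 to 34.5 CPM against 35.5 to 45.7 CPM, with 0.42 (SE 0.125). Prr11, which takes part in cell-cycle progression, stood at 21.3 to 27.0 CPM against 28.0 to 37.0 CPM, with 0.43 (SE 0.139). In all 3 genes sensory nerve− rat 4 was the lowest of its group and lay next to the highest sensory nerve+ rat. The other two were expressed at 1.5 CPM or less. Esr1, the estrogen receptor alpha, had 0.259 to 0.480 CPM against 0.648 to 0.941 CPM and a log2 fold change of 1.23 (SE 0.398), and Naalad2, a peptidase of the glutamate carboxypeptidase family, had 0.466 to 0.587 CPM against 0.775 to 1.5 CPM and 1.16 (SE 0.377).

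**Figure D2:**
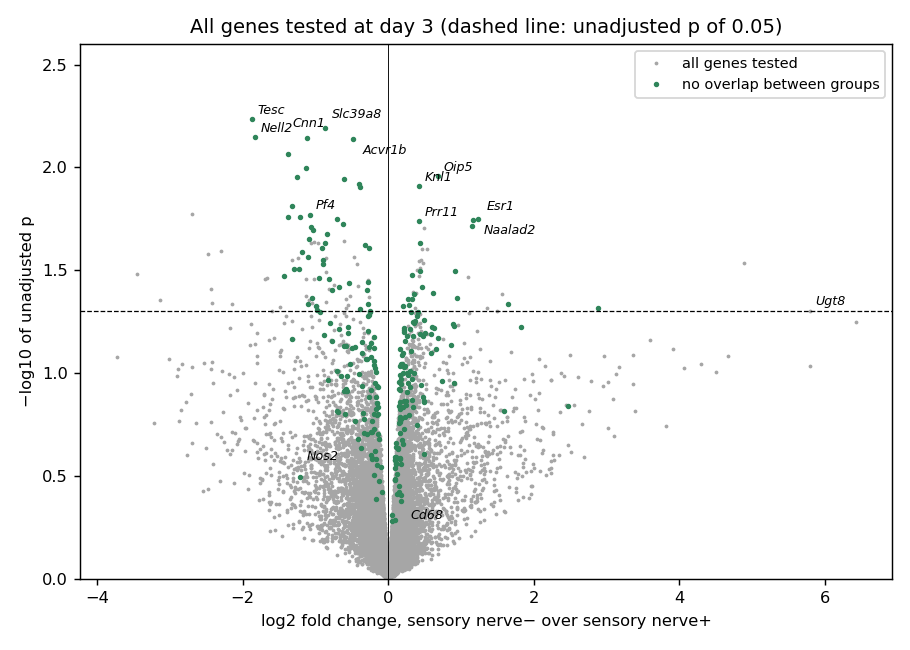
Log2 fold change of sensory nerve− over sensory nerve+ (x axis) against −log10 of the unadjusted p of edgeR (y axis) for the 14695 genes tested at day 3. Green points are the 253 genes whose groups do not overlap, the dashed line is the unadjusted threshold of 0.05, and 0 genes pass after adjustment. Ugt8, with a log2 fold change of 5.79, lies on the line, and Cd68 and Nos2 lie below it.

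Nerve tissue content was measured with 18 myelin genes, 12 genes of Schwann cell identity and 22 axon and nociceptor genes. Sensory nerve− rat 2 stood apart from the other 6 rats in the first 2 lists. It was the highest of the 7 rats in 17 of the 18 myelin genes and in 10 of the 12 identity genes, whereas it was the highest in 15.4% of all genes tested. The mean log2(CPM + 0.5) of the myelin list was 5.05 in that rat and 1.46 to 1.89 in the other 6, and that of the identity list was 5.88 against 1.22 to 1.90. Thus 1 library labelled as transected held far more Schwann cell RNA than any of the intact libraries, and the nerve content of the 6 other libraries was low in both groups.

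Mbp, the myelin basic protein, had 11.4, 8.08 and 8.70 CPM in sensory nerve+ rats and 7.71, 306, 5.44 and 8.80 CPM in sensory nerve− rats. Its log2 fold change of 3.12 (SE 1.65) turned to −0.36 when sensory nerve− rat 2 was left out, and apart from that rat its values overlapped between the groups. Prx, which links myelin to the cell surface, differed less between rats, with 3.52, 5.29 and 5.18 CPM in sensory nerve+ rats and 4.65, 13.7, 7.68 and 4.87 CPM in sensory nerve− rats. Ugt8, the enzyme that makes the myelin lipid galactosylceramide, had 78.3 CPM in sensory nerve− rat 2, 2.18 CPM in sensory nerve− rat 1 and 0.155 to 0.587 CPM in the other 5. Dhh, a signal from Schwann cells to the nerve sheath, had 31.4 CPM in rat 2 against 0.542 to 2.24 CPM in the other 6, with a log2 fold change of 2.96 (SE 1.46). Mag, the myelin-associated glycoprotein, reached no more than 0.20 CPM in any rat. The gene of the list that was not highest in that rat was Egr2, a regulator of myelination that immune cells also make, with 25.5, 6.17 and 27.9 CPM in sensory nerve+ rats and 18.8, 22.1, 23.3 and 20.9 CPM in sensory nerve− rats. Of the 11 myelin genes tested, 11 had a fold change above 0, with a median of 1.37 beside −0.0074 for all genes, and 1 of them (Ugt8) had an unadjusted p under 0.05. The median was −0.20 without sensory nerve− rat 2.

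The genes of Schwann cell identity behaved alike. Sox10, the transcription factor that defines the lineage, had 104 CPM (2082 counts) in sensory nerve− rat 2 and 0.111 to 0.299 CPM (2 to 6 counts) in the other 6 rats, so that it failed the filter and was not tested. S100b, a calcium-binding protein of Schwann cells, had 427 CPM there against 0.599 to 12.9 CPM, with a log2 fold change of 4.67 (SE 2.30). Cdh19 had 47.4 CPM against at most 0.320 CPM. Foxd3 and Sox2, which mark immature Schwann cells, had 39.9 and 63.2 CPM against at most 0.155 and 0.622 CPM. Ngfr, the p75 neurotrophin receptor of non-myelinating and repair Schwann cells, stood at 645 CPM in rat 2, 31.7 CPM in sensory nerve+ rat 2 and 0.942 to 9.13 CPM in the other 5. The rat therefore held genes of myelinating and of immature or repair Schwann cells together. The median log2 fold change of the 7 identity genes tested was 1.57, with 5 above 0 and 0 with an unadjusted p under 0.05, and −0.06 without that rat.

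Axon transcripts followed in part. Nefl and Nefm, the light and medium neurofilament chains, stood at 28.1 and 35.2 CPM in sensory nerve− rat 2, with 564 and 705 counts, and at no more than 0.155 and 0.587 CPM in the other 6 rats. Both failed the filter and were not tested, so that the counts of tested axon genes below leave them out. Nefh, the heavy chain, was not high there, with 8.13, 1.76 and 3.20 CPM in sensory nerve+ rats and 1.65, 2.15, 0.698 and 10.7 CPM in sensory nerve− rats. Gap43, a protein of growing axons, had 10.8, 12.8 and 3.15 CPM in sensory nerve+ rats and 1.53, 7.88, 5.64 and 7.31 CPM in sensory nerve− rats. Its log2 fold change was −0.67 (SE 0.65), and the groups overlapped. Prph, a neurofilament of small sensory neurons, had −1.01 (SE 0.589). P2rx3, an ATP-gated channel of nociceptors, stood at 0.271 to 0.480 CPM against 0.412 to 1.5 CPM, with a log2 fold change of 1.35 (SE 0.566). The nociceptor channel genes Trpv1, Trpa1 and Scn11a stood at 1.10 CPM or less in every rat and were not tested. The channel gene Scn9a, not tested either, had 3.54 CPM in sensory nerve− rat 2 and at most 0.0499 CPM in the other 6, whereas Scn10a had its highest value of 3.01 CPM in sensory nerve+ rat 2 and a log2 fold change of −1.48 (SE 1.23). Of the 11 axon and nociceptor genes tested, 9 were below 0, with a median of −0.63, which moved to −0.09 without sensory nerve+ rat 2. Among them, Isl1 had 0.135, 6.43 and 9.02 CPM in sensory nerve+ rats and 0, 1.85, 7.83 and 0.166 CPM in sensory nerve− rats. It was low in the same rats as Amelx, sensory nerve+ rat 1 and sensory nerve− rats 1 and 4. Piezo2 had 4.81, 116 and 14.4 CPM against 14.1, 24.35, 70.6 and 7.64 CPM. The part of tooth tissue in the values of this list was not tested.

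**Figure D3:**
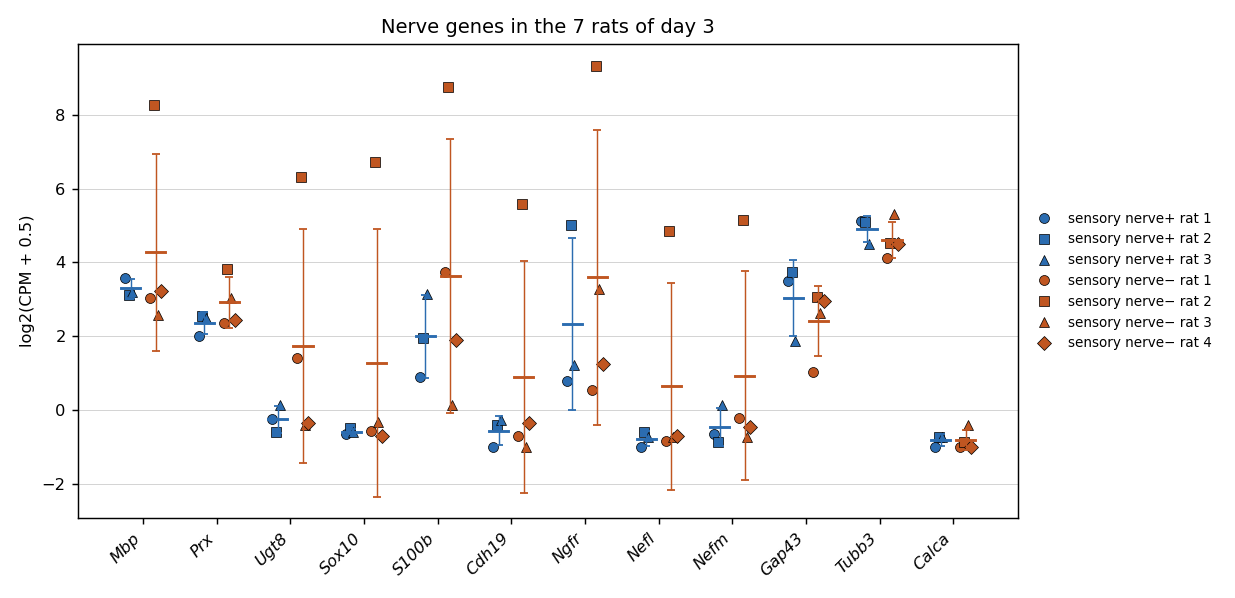
Log2(CPM + 0.5) of 12 nerve genes in each of the 7 rats, with 1 point per rat, horizontal lines at the group mean and error bars of 1 SD (n = 3 sensory nerve+, n = 4 sensory nerve−). The square of sensory nerve− rat 2 is the highest point of Mbp, Prx, Ugt8, Sox10, S100b, Cdh19, Ngfr, Nefl and Nefm, but not of Gap43, Tubb3 or Calca.

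Of the genes of the repair Schwann cell program and of neurotrophic signals, 12 of 16 were tested and 7 were above 0, with a median of 0.19. Gdnf, a growth factor for sensory and motor neurons, had 36.4 CPM in sensory nerve− rat 2 and 0.339 to 5.44 CPM in the other 6. Jun, the transcription factor that drives the repair program, had 118, 60.8 and 75.7 CPM in sensory nerve+ rats and 64.4, 193, 68.4 and 101 CPM in sensory nerve− rats, a log2 fold change of 0.33 (SE 0.441). Both were highest in the library with the most Schwann cell RNA, without which their log2 fold changes were −0.07 and −0.12 and the median of the list was −0.15. The groups did not overlap in 2 of the 12 genes, beside 1.72% of all genes tested. Nrg1, a ligand of the ErbB receptors on Schwann cells, had 10.2, 4.87 and 4.22 CPM in sensory nerve+ rats and 2.65, 3.04, 1.80 and 2.33 CPM in sensory nerve− rats, a log2 fold change of −1.38 (SE 0.381). Cntf, a neurotrophic cytokine made by Schwann cells, had 3.52, 2.12 and 3.15 CPM against 4.30, 9.08, 4.04 and 3.82 CPM, a log2 fold change of 0.86 (SE 0.406) that was 0.47 without sensory nerve− rat 2.

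Genes of the neuropeptides themselves were near the limit of detection. Calca had 0, 2 and 2 counts in sensory nerve+ rats and 0, 1, 5 and 0 counts in sensory nerve− rats, and Tac1 had 3 counts in sensory nerve+ rat 2 and 0 in the other 6, where a count of 0 allows up to 0.150 to 0.203 CPM at 3 counts. Calcb, the gene of the second form of CGRP, had 41 counts in sensory nerve− rat 3 and at most 7 in the other 6. A difference in CGRP or substance P transcripts was thus not detectable at this depth, and they could not be used to check the nerve labels. Of 31 listed genes of peptides and their processing, 19 were under 1 CPM in all 7 rats and 12 were tested, 6 of them above 0, with a median of −0.05. Npy, a peptide of sympathetic nerves that other cells also make, was the most abundant peptide gene, with 327, 640 and 532 CPM in sensory nerve+ rats and 243, 260, 117 and 363 CPM in sensory nerve− rats. Its log2 fold change was −1.02 (SE 0.391), and only sensory nerve− rat 4 lay above sensory nerve+ rat 1. Tac3, the gene of neurokinin B, had −1.80 (SE 1.12) at no more than 1.81 CPM. Pcsk1, a protease that cuts peptide precursors, had 113 CPM in sensory nerve− rat 2 against 6.70 to 29.2 CPM, and a log2 fold change of 1.46 (SE 0.939).

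Of 36 listed receptor genes of the peptides, 18 were under 1 CPM in all 7 rats and 14 were tested. The CGRP receptor is made of the receptor Calcrl and its partner Ramp1. Calcrl had 26.1, 22.1 and 27.3 CPM in sensory nerve+ rats and 30.0, 18.9, 26.6 and 22.4 CPM in sensory nerve− rats, with a log2 fold change of −0.04 (SE 0.182). Ramp1 had 3.01 to 7.74 CPM against 2.71 to 9.93 CPM and 0.16 (SE 0.513), and Ramp2, its counterpart for adrenomedullin, had −0.01 (SE 0.219). All 3 overlapped widely between the groups. Bdkrb1, a bradykinin receptor, had −0.65 (SE 0.383), and Sstr4, a somatostatin receptor, had −0.97 (SE 0.792). Of the 14 receptor genes tested, 12 were below 0, with a median of −0.15. The median was −0.14 to −0.08 in the fits of 6 rats, where the filter can keep other genes. Of 25 genes of transmitter release, 18 were tested and 11 were below 0, with a median of −0.12. Vamp2, a vesicle protein that cells other than neurons also use, had 38.7, 65.5 and 44.0 CPM against 34.5, 47.9, 56.0 and 42.5 CPM, and the neuronal genes Syt1 and Snap25 were at most 0.466 and 1.01 CPM. Cacna1a, a calcium channel subunit of nerve endings, had the largest value in sensory nerve− rat 2, at 24.9 CPM against 5.54 to 9.65 CPM in the other 6. Rims1, a protein of the release site, was at 6.48 CPM in sensory nerve+ rat 2 and at most 1.25 CPM elsewhere, with a log2 fold change of −2.04 (SE 1.31). Without the rat with its highest value, the log2 fold change was 0.20 for Cacna1a and 0.75 for Rims1.

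Macrophage markers did not differ beyond their spread. Cd68, the lysosomal glycoprotein used to stain macrophages, had 366, 177 and 423 CPM in sensory nerve+ rats and 437, 400, 227 and 442 CPM in sensory nerve− rats. The mean was 322 ± 129 (SD, n = 3) against 376 ± 101 (SD, n = 4), a log2 fold change of 0.23 (SE 0.354). The lowest rat of each group lay apart from the rest, and leaving out sensory nerve+ rat 2 gave −0.07. Csf1r, the M-CSF receptor, had 0.01 (SE 0.382), with 347 to 686 CPM against 291 to 722 CPM. Adgre1, the gene of the F4/80 antigen, had 0.17 (SE 0.480). Gpnmb, which phagocytic macrophages and osteoclasts make, had 0.44 (SE 0.324) at 1494 to 3091 CPM against 2816 to 4479 CPM. Cx3cr1, the fractalkine receptor of resident macrophages and monocytes, had −0.42 (SE 0.231), with 21.0 to 30.4 CPM against 14.5 to 24.2 CPM. Of the 19 macrophage and monocyte genes tested, 7 were above 0 and 12 below, with a median of −0.11, and Cd163, a scavenger receptor of resident macrophages, ranged from 23.6 to 133 CPM within the sensory nerve+ group and from 8.47 to 167 CPM within the sensory nerve− group.

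Genes of macrophage activation were higher in 1 sensory nerve+ rat than in any other. Nos2, the inducible nitric oxide synthase (iNOS), had 187, 30.1 and 33.5 CPM in sensory nerve+ rats and 37.3, 6.54, 11.7 and 89.6 CPM in sensory nerve− rats. Its log2 fold change was −1.20 (SE 1.03), which became 0.20 without sensory nerve+ rat 1 and −2.16 without sensory nerve− rat 4. These were the 2 rats with the highest values of their groups. Arg1, arginase of alternatively activated macrophages, had 500, 90.0 and 75.7 CPM against 50.6, 57.8, 64.6 and 324 CPM, so that it was high in the same 2 rats, with −0.84 (SE 0.939). Il1b, the cytokine interleukin-1 beta, had 104, 28.8 and 29.7 CPM against 30.0, 8.03, 9.28 and 52.8 CPM and a log2 fold change of −1.11 (SE 0.789). Tnf had 12.3, 4.72 and 7.68 CPM against 4.77, 3.34, 2.99 and 8.69 CPM and −0.73 (SE 0.482). Both were below 0 in each fit of 6 rats, between −1.77 and −0.21 for Il1b and between −1.14 and −0.32 for Tnf. Il6 was lower in abundance, with 6.91, 0.363 and 1.44 CPM against 1.47, 2.30, 1.25 and 1.83 CPM, and its −0.75 (SE 0.858) became 0.93 without sensory nerve+ rat 1. Of the 16 activation genes tested, 13 were below 0 with a median of −0.42. The highest value lay in sensory nerve+ rat 1 for 13 of 17, beside 2981 of all 14695 genes tested. Without that rat the median was 0.27.

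Cytokines and chemokines showed the same rat. The acute inflammation list shares Il1b, Tnf, Il6, Il1a and Ptgs2 with the macrophage activation list, so that these genes count in both lists. Sensory nerve+ rat 1 was the highest of the 7 rats in 12 of 22 genes of acute inflammation and 16 of 28 chemokine genes. It was so in 14 of 16 genes of glycolysis and hypoxia, and in 2981 of all 14695 genes tested. It was also the highest in all 12 erythroid genes and held the largest share of hemoglobin. The median log2 fold change was −0.43 for acute inflammation (14 of 19 genes below 0), −0.51 for chemokines (20 of 25 below 0) and −0.42 for glycolysis and hypoxia (15 of 16 below 0), and it was 0.07, 0.18 and 0.24 without that rat. The part of blood content in these values was not tested. Ccl2, the chemokine MCP-1 that draws monocytes, had 177, 40.0 and 90.2 CPM in sensory nerve+ rats and 57.9, 117, 102 and 126 CPM in sensory nerve− rats, a log2 fold change of −0.03 (SE 0.496). Cxcl1 and Cxcl2, which draw neutrophils, had −1.01 (SE 1.01) and −1.14 (SE 1.20), with the highest value in sensory nerve+ rat 1 for both. Pla2g2a, a secreted phospholipase of inflamed tissue, had 115, 219 and 239 CPM against 94.4, 75.3, 41.7 and 156 CPM, a log2 fold change of −1.06 (SE 0.453) that stayed between −1.43 and −0.82 in the fits of 6 rats. Il11, a cytokine of the interleukin-6 family, had −1.44 (SE 0.628) with 1.12 to 5.34 CPM against 0.647 to 1.65 CPM.

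Interferon-stimulated genes were near 0 as a group, with 8 of 20 above 0 and a median of −0.11. Isg15 had 2.64 to 5.42 CPM against 2.19 to 4.83 CPM, with a log2 fold change of −0.38 (SE 0.413). Ifit3, an antiviral protein, had 28.8, 18.4 and 14.5 CPM in sensory nerve+ rats and 14.8, 8.03, 7.48 and 12.01 CPM in sensory nerve− rats, with −0.96 (SE 0.331), and sensory nerve− rat 1 lay just above sensory nerve+ rat 3. Irf7, the regulator of type I interferon genes, had −0.84 (SE 0.462). In the complement list, 10 of 15 genes were below 0 with a median of −0.12. C1qa, the first component of the classical pathway, had −0.13 (SE 0.224), and Cfb, of the alternative pathway, had −0.35 (SE 0.356).

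**Figure D4:**
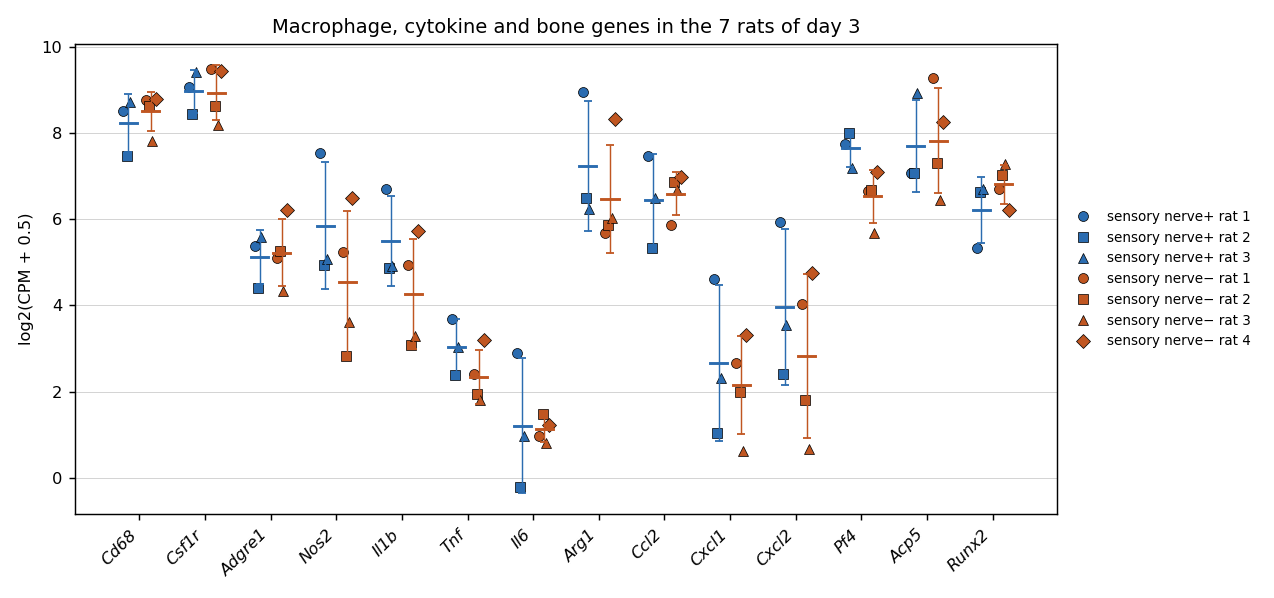
Log2(CPM + 0.5) of 14 macrophage, cytokine and bone genes in each of the 7 rats, with 1 point per rat, horizontal lines at the group mean and error bars of 1 SD (n = 3 and n = 4). The groups overlap in each gene except Pf4, and the circle of sensory nerve+ rat 1 is the highest point of Nos2, Il1b, Tnf, Il6, Arg1, Ccl2, Cxcl1 and Cxcl2.

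Neutrophil genes were carried by sensory nerve− rat 1. S100a8 and S100a9, the calprotectin subunits, had 34.2 to 49.4 and 82.1 to 122 CPM in sensory nerve+ rats, and in sensory nerve− rats 193, 7.74, 7.78 and 27.1 CPM and 435, 16.8, 19.6 and 66.7 CPM. Sensory nerve− rat 1 was the highest of the 7 in 16 of 21 neutrophil genes, beside 1986 of all 14695 genes tested. In S100a8 and S100a9 the other 3 sensory nerve− rats lay below all 3 sensory nerve+ rats. Csf3r, the G-CSF receptor, went the other way, with 141, 77.2 and 36.8 CPM against 45.8, 33.1, 34.6 and 85.4 CPM and a log2 fold change of −0.77 (SE 0.512). The median of the 19 genes tested was 0.50 with 15 above 0, and −1.14 without sensory nerve− rat 1. Ngp, a granule gene that neutrophil precursors of the bone marrow make, was high in that rat too, at 102 CPM against 0.0499 to 7.74 CPM in the other 6. T and NK cell genes had a median of −0.32 with 13 of 17 below 0, and Cd3e, of the T cell receptor complex, had 5.15, 6.43 and 10.5 CPM against 5.24, 3.39, 1.5 and 9.30 CPM. B and plasma cell genes had a median of 0.06 with 4 of 7 above 0. Of 3 mast cell genes tested, 2 were above 0.

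Osteoblast and osteoclast genes ranged widely within the groups. Runx2, the master regulator of osteoblasts, had 39.7, 98.1 and 103 CPM in sensory nerve+ rats and 103, 130, 156 and 74.3 CPM in sensory nerve− rats. Its log2 fold change was 0.53 (SE 0.387), between 0.21 and 0.75 in the fits of 6 rats. Sp7, which acts after Runx2, had 2.44, 137 and 73.6 CPM against 71.7, 30.0, 188 and 49.9 CPM, and Alpl, the alkaline phosphatase of mineralizing cells, had 5.76, 506 and 293 CPM against 106, 63.3, 438 and 126 CPM, with a log2 fold change of −0.55 (SE 1.21). In these and in Bglap and Ibsp, sensory nerve+ rat 1 was the lowest of the 7 rats. The osteoblast list had a median of 0.26 with 11 of 15 above 0, which was 1.14 without sensory nerve+ rat 2 and −0.50 without sensory nerve− rat 3.

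Acp5, the tartrate-resistant acid phosphatase (TRAP) that marks osteoclasts, had 135, 134 and 487 CPM in sensory nerve+ rats and 623, 158, 87.0 and 306 CPM in sensory nerve− rats, a log2 fold change of 0.22 (SE 0.766). Ctsk, the protease that degrades bone collagen, had 162, 413 and 1337 CPM against 1682, 480, 449 and 658 CPM and 0.36 (SE 0.783). The 2 genes were highest in sensory nerve− rat 1 and sensory nerve+ rat 3, 1 rat of each group. Tcirg1 and Clcn7, which acidify the resorption pit, had 0.38 (SE 0.451) and 0.25 (SE 0.256). Of 15 osteoclast genes tested, 11 were above 0 with a median of 0.15. The highest value lay in sensory nerve− rat 1 for 13 of them, beside 1986 of all 14695 genes tested. Without that rat the median was −0.28. In the axis that controls osteoclast formation, Tnfsf11 (RANKL) had 0.406, 3.06 and 4.96 CPM against 3.30, 3.34, 2.10 and 2.21 CPM and a log2 fold change of −0.04 (SE 0.707). Its decoy receptor Tnfrsf11b (osteoprotegerin) had 0.04 (SE 0.610), its receptor Tnfrsf11a (RANK) had 0.11 (SE 0.466), and Csf1 (M-CSF) had −0.09 (SE 0.344).

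Of 14 genes of matrix metalloproteinases and their inhibitors tested, 13 were above 0 with a median of 0.52, and the median stayed between 0.29 and 0.95 in the fits of 6 rats, although 0 genes had an unadjusted p under 0.05. Mmp12, the macrophage elastase, had 22.3, 15.1 and 44.0 CPM in sensory nerve+ rats and 66.9, 87.4, 29.2 and 35.3 CPM in sensory nerve− rats, a log2 fold change of 1.01 (SE 0.514). Timp2, an inhibitor of these proteases, had 470, 429 and 528 CPM against 546, 592, 516 and 618 CPM and 0.26 (SE 0.123). In Mmp12 2 and in Timp2 3 of the 4 sensory nerve− rats lay above all sensory nerve+ rats. Mmp3 had 0.339 to 3.74 CPM against 2.71 to 7.18 CPM and 1.39 (SE 0.801), Mmp2 had 0.19 (SE 0.437), which was −0.28 without sensory nerve− rat 3, and Mmp8, made by neutrophils, had 46.1 CPM in sensory nerve− rat 1. Of 18 collagen genes, 14 were above 0 with a median of 0.15. Col1a1, the main collagen of bone, had 12470, 13660 and 15358 CPM against 16360, 7414, 25151 and 14552 CPM and 0.20 (SE 0.434), and Col18a1, of basement membranes, had 0.75 (SE 0.348). Of 15 fibroblast and periodontal ligament genes, 9 were above 0 with a median of 0.06. Postn, periostin of the periodontal ligament, had 468, 1053 and 908 CPM against 1049, 850, 2561 and 886 CPM and 0.72 (SE 0.490), whereas Lox, the collagen crosslinking enzyme, had −0.68 (SE 0.356) and Tnc, of provisional matrix, had −0.82 (SE 0.445).

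All 18 cell cycle genes were above 0, with a median log2 fold change of 0.32 beside −0.0074 and 48.1% above 0 for all genes. Top2a, which untangles chromosomes, had 123, 116 and 137 CPM in sensory nerve+ rats and 195, 170, 175 and 131 CPM in sensory nerve− rats, a log2 fold change of 0.42 (SE 0.152). Foxm1, the transcription factor of mitotic genes, had 30.4, 30.4 and 38.6 CPM against 47.0, 53.1, 43.0 and 36.6 CPM and 0.44 (SE 0.162). These were the 2 genes of the list with an unadjusted p under 0.05, and in both only sensory nerve− rat 4 fell inside the range of the sensory nerve+ rats. Mki67, the proliferation antigen Ki-67, had 180, 126 and 180 CPM against 243, 231, 169 and 164 CPM and 0.31 (SE 0.208), and Ccnb1, cyclin B1, had 0.40 (SE 0.193). The highest value lay in sensory nerve− rat 1 for 16 of the 18 genes and in sensory nerve− rat 2 for the other 2. Over all 14695 genes tested, those rats were the highest in 1986 and 2265. The list median stayed above 0 in each fit of 6 rats, from 0.17 without sensory nerve+ rat 2 to 0.41 without sensory nerve− rat 4. Nuclear genes of the respiratory chain showed a smaller shift, with 23 of 26 above 0 and a median of 0.09, which was −0.0198 without sensory nerve+ rat 2. Cells of the blood vessels were even, with 7 of 14 endothelial genes above 0 and a median of −0.0044, and Pecam1 had 0.02 (SE 0.267). Lymphatic and pericyte genes had a median of 0.20 with 6 of 9 above 0.

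Other tissues differed between single rats. Skeletal muscle genes were highest in sensory nerve− rat 4 for 13 of 18 genes, beside 1273 of all 14695 genes tested. Acta1, skeletal actin, had 281 CPM there and 2.79 to 27.3 CPM in the other 6. The median of the list was 0.74, and −1.08 without that rat. The enamel and dentin list had a median of −1.46 over 7 genes, which ran from −5.72 without sensory nerve− rat 3 to 0.23 without sensory nerve+ rat 3. Epithelial keratin genes had a median of −0.73 with 9 of 10 below 0, and Krt5, of basal epithelium, had 0.542, 509 and 206 CPM in sensory nerve+ rats and 52.3, 137, 293 and 19.6 CPM in sensory nerve− rats. Enamel and dentin genes were low in sensory nerve+ rat 1 and in sensory nerve− rats 1 and 4, and keratin genes were lowest in sensory nerve+ rat 1 and sensory nerve− rat 4. Cartilage genes had a median of 0.02, with 2.15 without sensory nerve+ rat 2 and −2.11 without sensory nerve− rat 3, and adipocyte genes had 0.20 over 3 genes. Erythroid genes were below 0 in 12 of 12, with a median of −0.77 that turned to 0.38 without sensory nerve+ rat 1. Immediate early and stress genes had a median of −0.07 with 5 of 15 above 0, and the 5 salivary gland genes in the table had at most 0.135 CPM and were not tested.

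**Figure D5:**
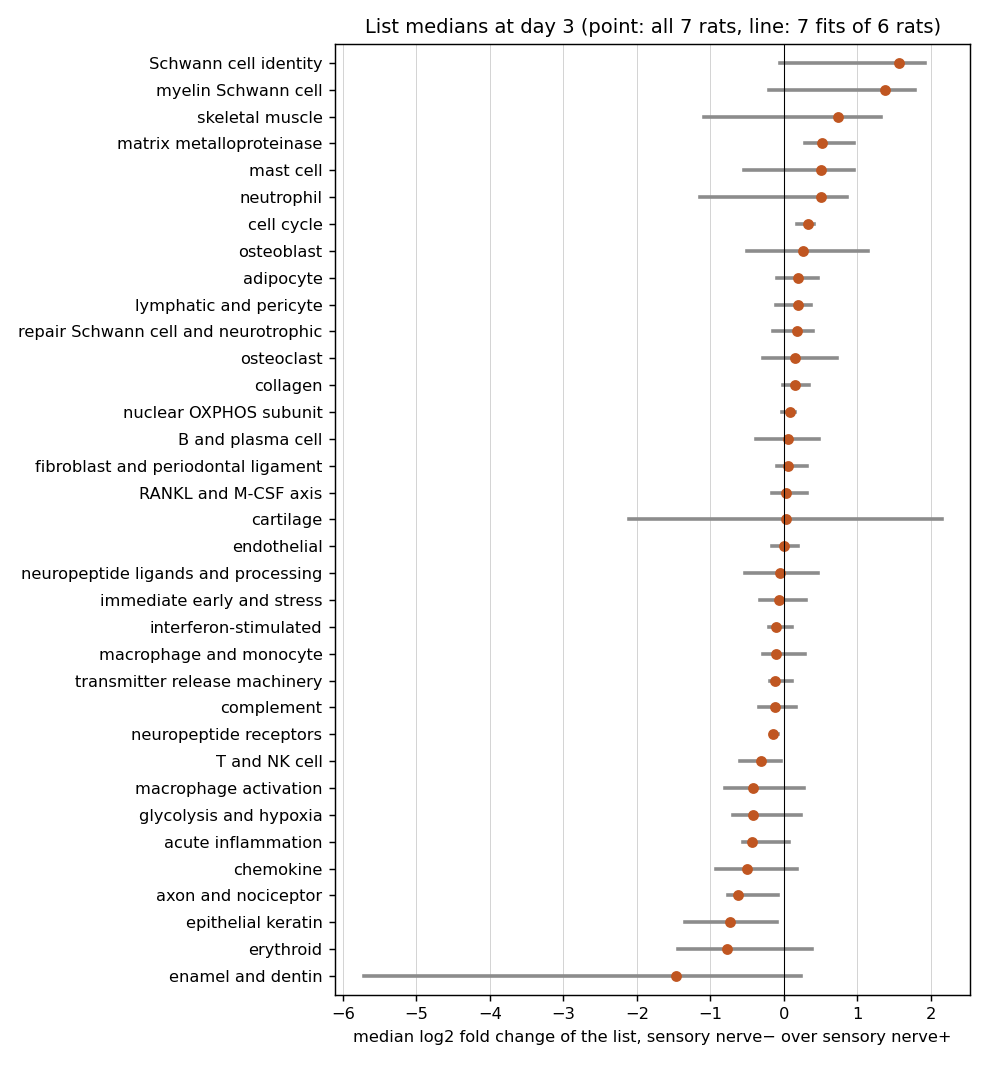
Median log2 fold change of sensory nerve− over sensory nerve+ (x axis) for 35 gene lists, with a point for the fit of all 7 rats and a line from the lowest to the highest of the 7 fits that leave out 1 rat. The lines of the myelin, Schwann cell, neutrophil, skeletal muscle and macrophage activation lists cross 0, and those of the matrix metalloproteinase and cell cycle lists stay above it. The sign of the median changed in at least 1 of these 7 fits in 29 of the 35 lists.

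Whether the effect of transection at day 3 differed from that at later days was tested over all 23 rats as the effect at day 3 minus the effect at day 7 or day 14. The day 7 counts of the sensory nerve− group were deposited in a table of their own, so that at day 7 group and table cannot be told apart. Of 15858 genes, 0 (0%) were called against day 7 and 0 (0%) against day 14 in edgeR, with 164 and 1029 genes at an unadjusted p under 0.05, and DESeq2 called 7 and 30. The 3 genes with the smallest p against day 7 were Sox10, Acvr1b and Ugt8, and against day 14 they were Cldn19, Prx and Ugt8. Prx, scaled over all rats, stood at 4.61 to 13.0 CPM (median 5.96) in sensory nerve− rats and 3.41 to 5.00 CPM (median 4.87) in sensory nerve+ rats of day 3. At day 7 it stood at 3.46 to 11.8 CPM (median 5.88) in sensory nerve− and 5.99 to 12.045 CPM (median 8.25) in sensory nerve+ rats. At day 14 it stood at 3.66 to 9.91 CPM (median 7.54) in sensory nerve− and 11.7 to 127 CPM (median 45.6) in sensory nerve+ rats. The ranges of the groups in Prx overlapped at days 3 and 7 and not at day 14. The share of all genes without overlap at day 14 was not counted, and Prx was named for its small p against that day. The difference of its effect between day 3 and day 14 was 3.73 on the log2 scale (SE 0.833), and 3.31 (SE 0.818) without sensory nerve− rat 2 of day 3, and that of Ugt8 was 8.77 (SE 1.97) and 4.32 (SE 1.05), with adjusted p of 0.751 and, without the rat, 0.979 in edgeR. DESeq2 called these genes and Cldn19 with all rats, at adjusted p of 0.00503 for Prx, 9.89e-05 for Ugt8 and 0.000129 for Cldn19, and none of the 3 without that rat, at an adjusted p of 0.168 for each. Against day 7 the difference of Sox10 was 8.38 (SE 2.41) and became 1.39 (SE 1.18), with an adjusted p of 0.0155 in DESeq2 that was 1 without the rat, while that of Acvr1b was −0.68 (SE 0.195) and −0.67 (SE 0.209).

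Fits of each day on its own gave the genes of the macrophage and bone readouts. In edgeR 0 of 14716 genes were called within day 7 and 0 of 14610 within day 14. The lowest adjusted p was 0.999725 and 0.519252. The fold changes of those days therefore describe the rats, and none passed the test. The log2 fold change of Cd68 was 0.23 at day 3, 1.00 at day 7 and 0.97 at day 14, that of Nos2 was −1.20, −0.28 and 1.58, and that of Il1b was −1.11, 0.43 and 1.20. The difference between day 3 and day 14 was −0.75 (SE 0.698) for Cd68, −2.81 (SE 1.77) for Nos2 and −2.31 (SE 1.25) for Il1b, with adjusted p of 0.831, 0.778 and 0.754 in edgeR. Acp5 had 0.22, 1.20 and 2.12 and Runx2 had 0.53, −0.16 and 0.78 at the 3 days, and their differences were not called either. The median of the macrophage and monocyte list was −0.11 at day 3, 0.72 at day 7 and 0.40 at day 14, and that of the osteoclast list was 0.15, 0.82 and 1.38. Differences of list medians between days were not tested. With 1 rat left out, the day 3 median ran from −0.28 to 0.29 for the macrophage and monocyte list and from −0.28 to 0.72 for the osteoclast list. List medians of days 7 and 14 were not refitted in this way.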

How the data were processed

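The libraries of mRNA were sequenced on the DNBSEQ platform from separate rats. The authors deposited expected counts per gene, which are estimated counts that need not be whole (37.79% of the day 3 values are). They filtered reads for quality and adapters and mapped them by HISAT (genome build mRatBN7.2), and Bowtie2 is also listed in the submitters' processing notes. The counting program and its use of strand are not given in the sources used here, so that reads of overlapping genes cannot be told apart. Counts of the 7 day 3 libraries were rounded, filtered with filterByExpr, scaled by TMM and tested with edgeR 4.0.16 in R 4.3.3 (quasi-likelihood F-test, Benjamini-Hochberg adjustment, threshold 0.05), the SE being the log2 fold change divided by the square root of F. DESeq2 1.42.0, limma-voom (limma 3.58.1), other scalings and filters, a replicate block and fits without 1 rat were alternatives, and figures used Python 3.11.15 with matplotlib 3.10.9. Both fits of DESeq2 without 1 rat were added after seeing the data. The filter was applied anew in each fit without 1 rat, so that the genes behind a list median can differ between fits. List levels are means of log2(CPM + 0.5). The edgeR fit of the day 3 comparison was tested on simulated counts, and the other fits were not. The share of changed genes that it found at the spread estimated from these rats is not reported here. An absence of calls therefore does not show an absence of change.

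The text names the genes of the study's nerve, macrophage and osteoclast readouts, the 5 genes without overlap and with the smallest p in each direction, the 3 with the smallest p in each test between days, and of each of 36 lists (595 genes) the first 3 genes and the 2 with the smallest p. Some of these are not reported here or are given by their list only. Members and lists were chosen with earlier results of these data known, and Cd163, Egr2, Foxd3, Ibsp, Isl1, Mag, Mmp8, Ngfr, Ngp, Pcsk1, Piezo2, Scn10a, Scn11a, Scn9a, Sox2, Trpa1, Trpv1 and Tubb3 were named after their values were seen.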

Additional observations from a re-analysis of the deposited data

Results flagged for a closer look

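In the sensory nerve− group of 4 rats, 165 values (127 genes, 36 lists and 2 library measures) were searched for a rat far from the other 3 of its group, and 20 stood out by Dixon's 95% critical value, where chance gives about 1 in 20. Some of the genes searched, among them Foxd3, Sox2, Scn9a, Trpa1, Thbs1 and Reln, were named after their values were seen. The 20 can therefore not be set against that rate. The group of 3 sensory nerve+ rats was not searched. Sensory nerve− rat 2 was the high rat in 13 of the 20 values, given here as log2(CPM + 0.5). Its list means were 5.88 for Schwann cell identity and 5.05 for myelin, and its gene values were 6.71 for Sox10, 5.58 for Cdh19, 5.34 for Foxd3, 5.99 for Sox2, 8.26 for Mbp, 3.35 for Cldn19 (a claudin of the myelin sheath), 3.26 for Cntf, 4.84 for Nefl, 5.16 for Nefm, 2.02 for Scn9a and 7.89 for Reln. The Schwann cell and neurofilament genes among them share the library described above for the lists, so that they are not separate observations. Sensory nerve− rat 4 was the high rat of the glycolysis and hypoxia list at 7.63, of Arg1 at 8.34 and of Thbs1 (thrombospondin 1) at 10.01, and the low rat of the matrix metalloproteinase list at 5.19. Sensory nerve− rat 3 was the high rat of Mmp2 at 9.86 and of the nociceptor channel Trpa1 at 0.20, where it had 13 counts, and the low rat of Cd68 at 7.83.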

How the results depend on the processing

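Under each alternative edgeR, DESeq2 and limma-voom called 0 genes at day 3, with 211 genes at an unadjusted p under 0.05 in DESeq2, 110 in limma-voom and 54 to 286 when 1 rat was left out. Between days edgeR called 0 genes under each alternative, whereas DESeq2 called 7 genes against day 7 and 30 against day 14, and in the fits added after seeing the data, without sensory nerve− rat 2 of day 3, it called 1 and 1. Of the 7 genes 1 (Shh) was still called without that rat, and of the 30 genes 0. The log2 difference of Shh there was 21.3, at an adjusted p of 0.04875 in DESeq2. At day 3 Shh had 0, 22.9 and 11.3 CPM in sensory nerve+ rats and 0, 14.1, 4.29 and 0 CPM in sensory nerve− rats, so that both groups held rats without a count. At day 3 no named gene was called under any setting. The sign of the fold change differed from that reported in 29 of 155 genes with all rats, and in 88 with 1 rat left out. Scaling by library total moved the median of all genes from −0.0074 to 0.0658 and the share above 0 from 48.1% to 63.8%. Over 35 lists, 4 of 315 medians moved beyond the spread between rats with all rats in the fit, and 19 of 245 with 1 rat left out, while the sign changed in 14 and 29 of the 35 lists. With the replicate block, 0 genes were called and 294 had an unadjusted p under 0.05, and the deviations of same-numbered rats correlated at 0.316, 0.0748 and −0.0336, so that the numbers do not pair the rats. The median SE of a gene was 0.234 on the log2 scale, and at 17830593 to 18742274 counts a gene with no count may reach 0.150 to 0.203 CPM.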

Other observations

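Genes of platelets and their precursors, the megakaryocytes, had no list of their own above, and the 22 genes were chosen after their values were seen. Pf4 and Ppbp also stand in the chemokine list, Itgb3 in the osteoclast, Vwf in the endothelial and Selp in the acute inflammation list. The values of these genes thus count in both places. Of these, 21 had a log2 fold change below 0, with a median of −0.94, 11 did not overlap between the groups (1.72% of all genes tested) and 10 had an unadjusted p under 0.05 (0.83% of all genes tested), while 0 passed after adjustment. Since the genes were picked for such values, these counts describe the choice and are no test. Itga2b, the platelet integrin alpha IIb, had 149, 302 and 178 CPM in sensory nerve+ rats and 138, 77.3, 57.0 and 121 CPM in sensory nerve− rats, a log2 fold change of −1.09 (SE 0.372). Pf4, the platelet factor 4, had 215, 258 and 145 CPM against 100, 103, 50.7 and 137 CPM and −1.08 (SE 0.344). In both genes the lowest sensory nerve+ rat lay just above the highest sensory nerve− rat. Gp5, a subunit of the receptor for von Willebrand factor, had 12.3, 24.8 and 17.7 CPM against 9.24, 6.74, 4.14 and 11.5 CPM and −1.21 (SE 0.389), and Tubb1, the tubulin of the platelet ring, had 51.7, 111 and 74.0 CPM against 51.5, 25.4, 21.3 and 48.4 CPM and −1.11 (SE 0.396). Itgb3, which osteoclasts also make, was the gene above 0, with 0.08 (SE 0.798). Hemoglobin genes, the measure of red blood cells, took 19.5%, 6.49% and 5.40% of the counts in sensory nerve+ rats and 12.5%, 4.09%, 2.05% and 7.90% in sensory nerve− rats. Sensory nerve+ rat 1, with the largest hemoglobin share, was the highest rat in 4 of the 22 platelet genes (Gp6, Gfi1b, Nfe2 and Thbs1). Sensory nerve+ rat 2 was the highest in 14. Over all 14695 genes tested, these rats were the highest in 2981 and 3204. The part of blood content in these values was not tested.

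Chl1, a cell adhesion molecule of neurons and glia, was chosen after its values were seen because its groups did not overlap and sensory nerve− rat 2 stood out. It had 2.57, 8.24 and 9.61 CPM in sensory nerve+ rats and 19.2, 161, 11.2 and 10.8 CPM in sensory nerve− rats. Apod, an apolipoprotein of nerve and stroma, had 425 CPM in that rat and 0.406 to 4.24 CPM in the other 6, and Reln, the secreted protein reelin, had 236 CPM against 2.61 to 5.29 CPM.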
